A study of Homo sapiens with 6 samples.

Results

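The genes described here are 33 caspases, BCL2 family members and regulators of apoptosis. They were taken by gene symbol from the 58825 gene identifiers of the deposited table. The list was chosen with earlier results of these data known. RNA was measured by RNA-seq in SKOV3, an established human ovarian cancer cell line, in which the translation factor EIF5A2 had been knocked down by siRNA (si-EIF5A2) or which had received a negative control siRNA (NC). Each group had 3 libraries, and the description of the series gives 48 h as the time after transfection. Both groups are the same unmodified line, and nothing in the labels says whether the libraries of a group came from separate cultures, so p-values measure the spread between these libraries, which may be technical. Totals ran from 46900204 to 74142267 estimated counts per library, and the lowest correlation between libraries of a group was 0.964 against a highest of 0.938 between groups.

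Apoptosis runs along an extrinsic and an intrinsic route. In the extrinsic route, ligand-bound death receptors recruit adaptors such as FADD, which gather and activate initiator caspases. In the intrinsic route, BH3-only proteins restrain the anti-apoptotic BCL2 proteins or activate BAX and BAK1, which open the outer mitochondrial membrane. Cytochrome c then leaves the mitochondria and joins APAF1 and caspase-9 in the apoptosome, while inhibitor of apoptosis (IAP) proteins hold caspases back or ubiquitinate their regulators. SKOV3 cells are used as a model of epithelial ovarian cancer, in which resistance to cisplatin, an inducer of apoptosis, is a clinical problem.

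EIF5A2 itself was at 27.8, 29.8 and 29.9 CPM (counts per 1000000, scaled by TMM library sizes) in NC and at 2.76, 4.04 and 4.27 CPM in si-EIF5A2. The targeted RNA was thus lower in every knockdown library, with a log2 fold change of -2.98 (SE 0.18) and an adjusted p of 1.6e-05 in edgeR's quasi-likelihood test. Of the 8 epithelial or SKOV3 markers examined, MUC16 was listed at 0 in all libraries, and the summed level of the list was 1130 to 1270 CPM in NC against 755 to 950 CPM in si-EIF5A2. Most of this sum was KRT8 and KRT18, at means of 608 and 418 CPM in NC. EPCAM, KRT19 and CDH1 were low there, at 1.55, 3.22 and 0.663 CPM. KRT8 (log2 fold change -0.69) and PAX8 (-0.80) were lower in si-EIF5A2 by the rule for calls given below, and the other tested markers of this list were not called. The leukocyte markers PTPRC and CD3E were at 0, and the 5 genes of that list summed to 41.2 to 57.9 CPM in NC against 30.1 to 56.3 CPM in si-EIF5A2, nearly all from CD68. Summed endothelial markers (4 genes, 1.94 to 2.37 CPM in NC against 0.156 to 1.0 CPM in si-EIF5A2) and fibroblast markers (6 genes, 1.17 to 1.52 and 0.861 to 2.75 CPM) were low. In bulk RNA, fewer cells with a transcript and less of it per cell cannot be told apart.

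All 33 apoptosis genes passed the filter on low counts. Calls required a change of over 1.5-fold whose p, adjusted over all 16208 genes tested, was under 0.05. By this rule 5 of the 33 were higher in si-EIF5A2 (CASP4, BBC3, PMAIP1, CYCS and BIRC2), beside 11.1% of all genes tested, and 4 were lower (BMF, BCL2L12, CASP10 and BIK), beside 13.6%. The shares of the list, 15.2% and 12.1%, were near those backgrounds. The libraries of the groups did not overlap for 21 members (13 higher and 8 lower in si-EIF5A2), beside 51.2% of all genes tested. The median log2 fold change over the list was 0.158 and its median size 0.468, beside -0.0105 and 0.446 over all genes. The list as a whole therefore moved little more than other genes did, and the differences lay in single members.

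At an adjusted p under 0.05 with no limit on the fold change, 8 members were higher and 6 lower, beside 18.0% and 18.9% of all genes. The 5 that joined the called genes were FADD, BAK1 and HRK, which were higher, and CASP8 and CASP9, which were lower, each by less than 1.5-fold. HRK and CASP9 passed less firmly than the other 3: each had an adjusted p over 0.05 in 5 of the 6 fits with 1 library left out, where FADD, BAK1 and CASP8 passed in all 6. At the threshold the study's methods state, an unadjusted p under 0.05 and a fold change over 2, 4 members were higher and 4 lower, beside 5.38% and 9.24% of all genes.

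The called genes lie on several chromosomes, with positions taken from GENCODE 29 (GRCh38). CASP4 and BIRC2, both higher, share chromosome 11, and BBC3 (higher) and BCL2L12 (lower) share chromosome 19. Those called higher were CASP4 (chr11:104942866-104969436), BIRC2 (chr11:102347211-102378670), BBC3 (chr19:47220822-47232766), PMAIP1 (chr18:59899948-59904306) and CYCS (chr7:25120091-25125361). Those called lower were BMF (chr15:40087890-40108892), BCL2L12 (chr19:49665142-49673916), CASP10 (chr2:201182881-201229406) and BIK (chr22:43110748-43129712). CASP10 lies between CFLAR (chr2:201116104-201176687) and CASP8 (chr2:201233443-201287711), and of these 3 neighbours CASP10 was called lower. CASP8 (log2 fold change -0.41) and CFLAR (0.80, adjusted p 0.097 in edgeR) were not called. CASP4 and CASP1 (chr11:105025443-105035250) lie close to each other, and both were higher in every knockdown library, of which CASP4 alone was called.

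**Figure D1:**
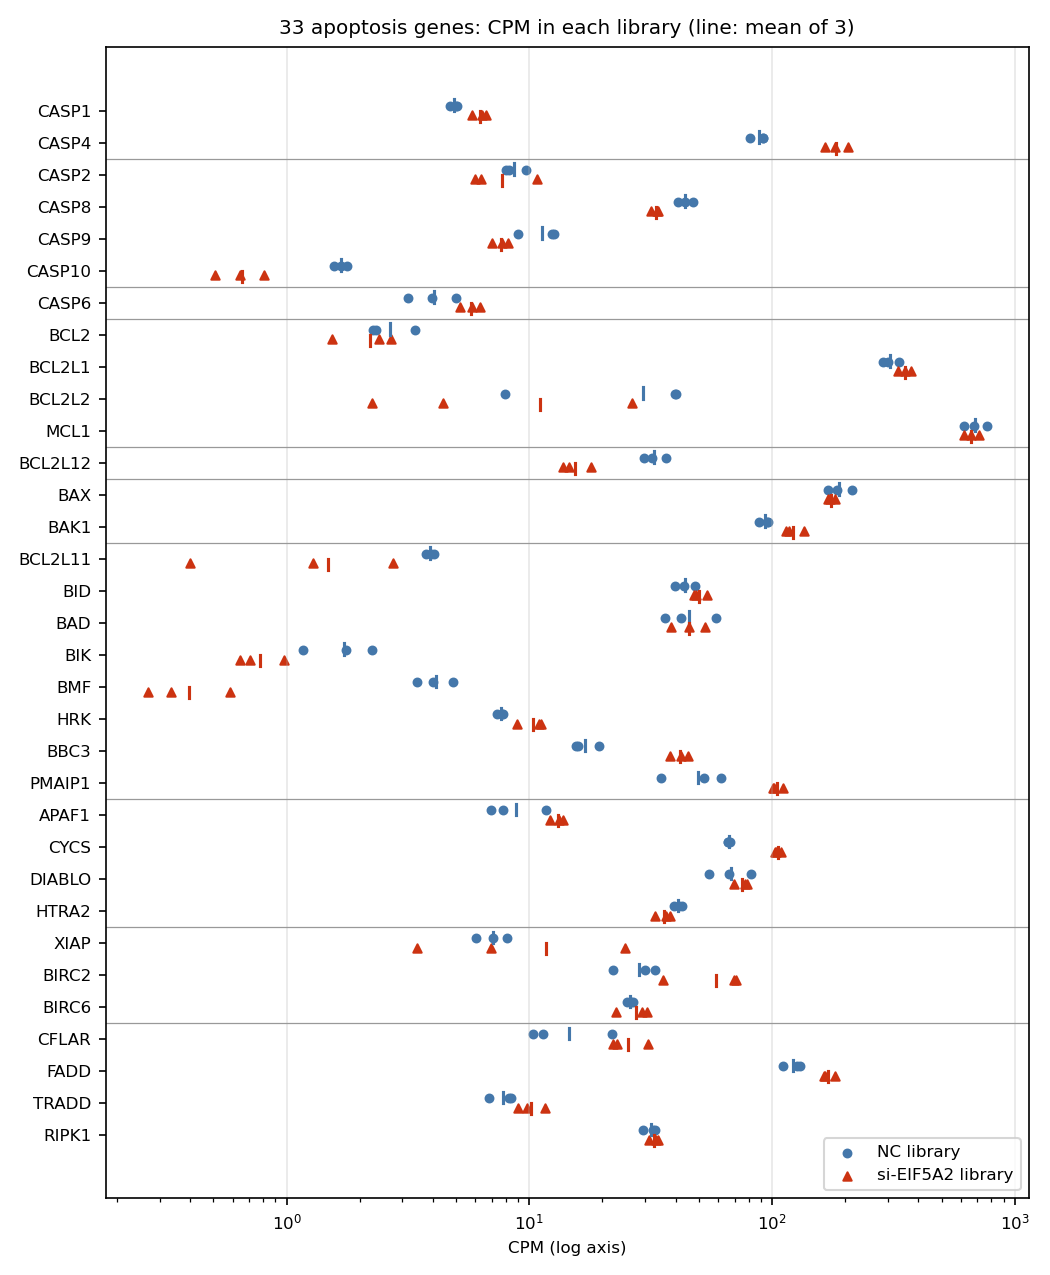
CPM of each of the 33 genes in each library on a log axis, with circles for the 3 NC libraries, triangles for the 3 si-EIF5A2 libraries and a vertical tick at each group's mean. Grey lines separate the roles from caspases at the top to death receptor adaptors at the bottom, and the groups stand apart for CASP4, BMF, BBC3, PMAIP1 and CYCS while they overlap for MCL1, BAX and RIPK1.

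Among the caspases, CASP4 rose and CASP10 fell, and 5 of 7 were not called. Over all genes tested, 11.1% were called higher and 13.6% lower. CASP4, a caspase of the non-canonical inflammasome that senses bacterial lipopolysaccharide in the cytosol, was at 81.0, 91.5 and 91.3 CPM in NC and at 205, 165 and 182 CPM in si-EIF5A2. Every knockdown library lay well above every control library. The means were 88.0 ± 5.98 and 184 ± 19.9 CPM (SD, n = 3), a log2 fold change of 1.07 (SE 0.10) with an adjusted p of 0.000126 in edgeR. CASP1, the inflammasome caspase that matures interleukin-1β, was low at 4.91 and 6.28 CPM in NC and si-EIF5A2, and its log2 fold change of 0.35 was not called (adjusted p 0.0913 in edgeR).

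The initiator caspases lay lower in si-EIF5A2 where their groups separated. CASP10, which like caspase-8 is recruited to death receptors, was rare at 1.67, 1.57 and 1.77 CPM in NC. In si-EIF5A2 it was at 0.509, 0.805 and 0.646 CPM. The groups did not overlap, and the log2 fold change was -1.35 (SE 0.31, adjusted p 0.0113 in edgeR). CASP8, the main initiator of the extrinsic route, was at 43.6, 47.2 and 41.0 CPM in NC and at 34.0, 31.6 and 33.7 CPM in si-EIF5A2. Its libraries were likewise separate, and its log2 fold change of -0.41 (SE 0.09) had an adjusted p of 0.00881 in edgeR but stayed under the 1.5-fold limit. CASP9, the initiator held by the apoptosome, was at 11.3 ± 2.06 CPM in NC against 7.66 ± 0.576 CPM in si-EIF5A2 (n = 3), with a log2 fold change of -0.56 and an adjusted p of 0.0318 in edgeR. The fold change fell just short of the limit, so CASP9 was not called. It was called without NC replicate 2 (-0.71, adjusted p 0.0122) and with the filter on low counts removed (-0.59, adjusted p 0.0225), and with any other single library left out its adjusted p lay between 0.0549 and 0.0974. CASP2, an initiator linked to DNA damage and to errors of cell division, overlapped between groups at 8.64 and 7.70 CPM (log2 fold change -0.17, 95% interval -0.72 to 0.39). CASP6, an executioner caspase, was at 4.05 and 5.75 CPM, with every knockdown library above the controls, a log2 fold change of 0.51 and an adjusted p of 0.0943 in edgeR (0.69 and 0.0478 without NC replicate 2).

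Levels of different genes were compared per kilobase of exon (CPM per kb). The length was that of the merged exons of all annotated transcripts of a gene, so shares and rankings depend on it. The 7 caspases of the list summed to 23.7, 26.2 and 25.2 CPM per kb in NC and to 40.4, 34.7 and 36.3 in si-EIF5A2. CASP4 alone made up 48.4 ± 1.40% of that sum in NC and 68.3 ± 2.24% in si-EIF5A2 (SD, n = 3). The share of CASP8 went from 24.2 ± 1.56% to 12.3 ± 0.629% and that of CASP9 from 8.63 ± 1.90% to 3.92 ± 0.110%. A share depends on all genes of its sum, so these falls also reflect the higher CASP4. The mean levels of CASP8 and CASP9 in si-EIF5A2 were 75.3% and 67.7% of those in NC. The make-up of the transcripts thus differed more between groups than between libraries of a group, and the rise of CASP4 from 12.1 to 25.4 CPM per kb was larger than that of the sum. These shares are descriptions with no test, since 3 against 3 libraries allow no exact permutation p under 0.10.

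The BH3-only genes moved in both directions: of 8, BBC3 and PMAIP1 rose, BMF and BIK fell, and 4 were not called. This was 25.0% called in each direction, beside 11.1% higher and 13.6% lower among all genes tested. BBC3 encodes PUMA, which binds all the main anti-apoptotic BCL2 proteins. It was at 15.6, 19.3 and 15.9 CPM in NC and at 38.0, 42.0 and 44.9 CPM in si-EIF5A2. The lowest knockdown library was above the highest control library, and the log2 fold change was 1.30 (SE 0.12, adjusted p 0.000121 in edgeR). PMAIP1 encodes NOXA, which pairs with MCL1. Its level was 52.4, 61.5 and 34.7 CPM in NC against 111, 102 and 101 CPM in si-EIF5A2. The NC libraries were spread out, with replicate 3 lowest, yet the groups stayed apart at 49.5 ± 13.6 and 105 ± 5.49 CPM (SD, n = 3), a log2 fold change of 1.08 (SE 0.20, adjusted p 0.0052 in edgeR).

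BMF, a BH3-only protein that is held at the cytoskeleton and released by loss of attachment, showed the largest change of the 33 genes. It was at 4.01, 4.87 and 3.45 CPM in NC and at 0.587, 0.268 and 0.334 CPM in si-EIF5A2. The knockdown libraries were all near the limit of detection, which is 0.214 to 0.233 CPM for 3 fragments in these libraries, while the NC libraries were not. The log2 fold change was -3.37 (SE 0.35, adjusted p 0.000219 in edgeR). BIK, a BH3-only protein of the endoplasmic reticulum, was at 2.25, 1.75 and 1.17 CPM in NC and at 0.645, 0.977 and 0.709 CPM in si-EIF5A2. The lowest NC library was close to the highest knockdown library. The log2 fold change was -1.15 (SE 0.36, adjusted p 0.0371 in edgeR), and BIK was no longer called when NC replicate 1 (-0.91, adjusted p 0.139), NC replicate 2 (-1.14, 0.0948), si-EIF5A2 replicate 1 (-1.04, 0.104) or si-EIF5A2 replicate 3 (-1.09, 0.0939) was left out.

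BCL2L11, which encodes BIM, was at 3.93, 4.05 and 3.76 CPM in NC and at 1.29, 0.402 and 2.75 CPM in si-EIF5A2. Its controls were tight and its knockdown libraries were scattered but all lower. The log2 fold change of -1.40 (SE 0.60) missed the threshold with an adjusted p of 0.117 in edgeR. Without si-EIF5A2 replicate 3 it was called at -2.21 (adjusted p 0.0143), and DESeq2 called it on all libraries at -1.41 (adjusted p 0.0255). HRK, a BH3-only gene best known from neurons, was at 7.61 CPM in NC against 10.4 CPM in si-EIF5A2, with every knockdown library higher, a log2 fold change of 0.44 and an adjusted p of 0.0384 in edgeR, under the fold limit. Without NC replicate 1, 2 or 3 or without si-EIF5A2 replicate 1 or 3, the adjusted p of HRK was between 0.0784 and 0.123. BID, which caspase-8 cleaves to link the extrinsic to the intrinsic route, overlapped at 43.9 and 50.2 CPM (log2 fold change 0.19, 95% interval -0.0394 to 0.43). BAD, which is controlled by phosphorylation, was nearly level at 45.6 ± 11.7 and 45.5 ± 7.32 CPM (SD, n = 3), with an interval for its log2 fold change of -0.47 to 0.47. On the reference annotation, 23.7% of the exon bases of BAD lie opposite GPR137.

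Per kilobase, the 8 BH3-only genes summed to 68.3 ± 12.4 CPM per kb in NC and 101 ± 4.62 in si-EIF5A2 (SD, n = 3). By the mean, the most abundant in NC was BAD, with 39.0 ± 5.47% of the sum, although PMAIP1 was ahead of it in NC replicate 2. Without scaling by length, PMAIP1 was also ahead by the mean in NC, at 49.5 CPM against 45.6 CPM for BAD. In si-EIF5A2 the most abundant was PMAIP1, with 46.7 ± 2.63%. PMAIP1 held 32.2 ± 4.68% in NC, and in the individual libraries its share ran from 28.7% to 37.5% in NC and from 43.8% to 49.0% in si-EIF5A2, so the groups did not overlap. BBC3 went from 7.94 ± 1.47% to 13.1 ± 1.55%. BMF, BIK and BCL2L11, which were lower in the knockdown libraries, were minor transcripts in both groups, at 1.11%, 2.61% and 0.879% of the sum in NC and 0.0724%, 0.809% and 0.227% in si-EIF5A2.

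**Figure D2:**
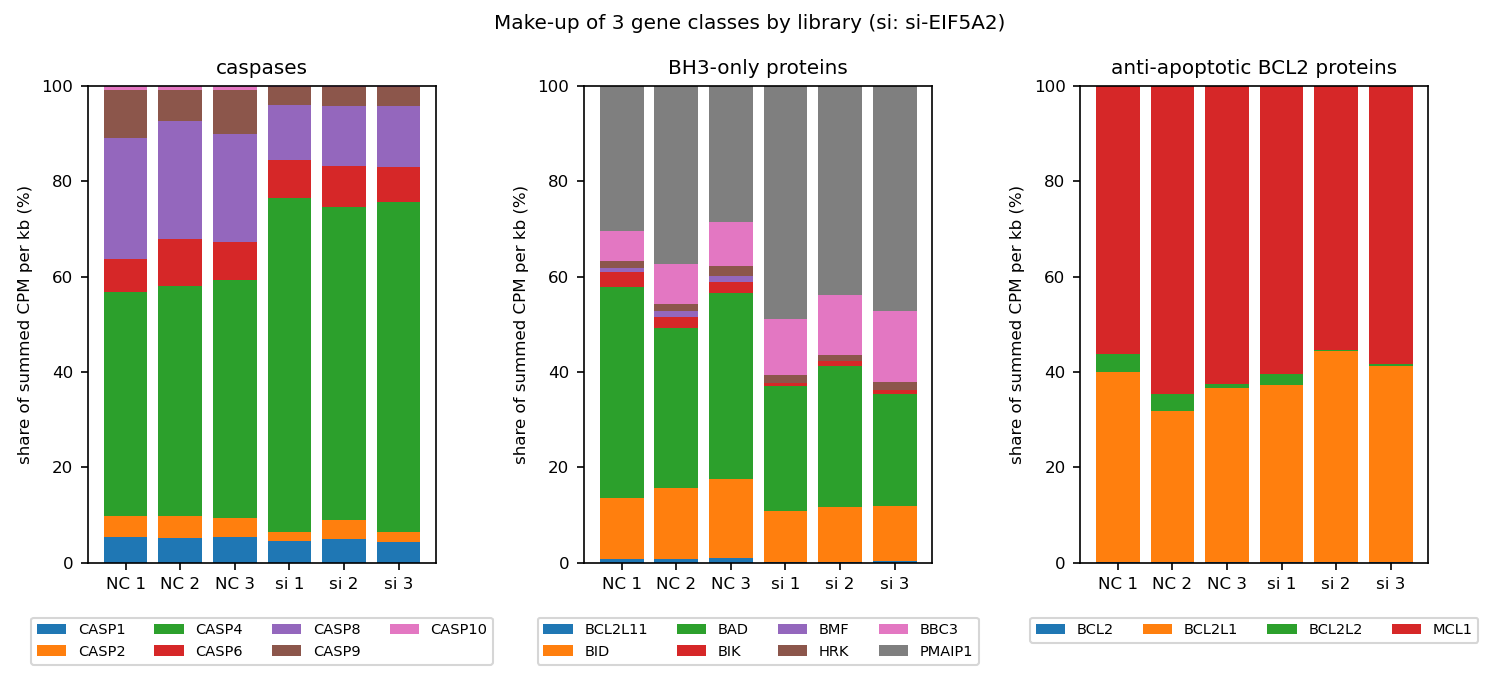
Stacked bars of the share of the summed CPM per kb (%) that each gene took among caspases, BH3-only and anti-apoptotic BCL2 genes, 1 bar per library, with NC 1 to NC 3 on the left and si-EIF5A2 (si 1 to si 3) on the right. CASP4 takes 47.1% to 49.9% of the caspases in NC and 65.8% to 70.0% in si-EIF5A2, and PMAIP1 is the widest band of the BH3-only genes in the si-EIF5A2 bars, while MCL1 and BCL2L1 fill most of the third panel in all libraries.

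Promoters of 4 called genes are shown, each as the stretch of the 250 bases before the start site that overlaps no exon of any gene (RefSeq, GRCh38.p14, each on the strand of its gene). Of the 33 members, 27 had at least 1 window. BBC3 and PMAIP1 (higher) and BMF (lower) are given as the BH3-only genes with a called change and such a stretch, and CYCS as the called gene with the tightest libraries. BMF had a second window, from another start site, and BIRC2 had 2 windows with such a stretch. These are not printed. Capitals mark matches to the motifs listed after the sequences. The BBC3 stretch is chr19:47232767-47232917 (minus strand), the PMAIP1 stretch chr18:59899746-59899947 (plus strand), the CYCS stretch chr7:25125362-25125510 (minus strand) and the BMF stretch chr15:40108893-40109129 (minus strand).
BBC3: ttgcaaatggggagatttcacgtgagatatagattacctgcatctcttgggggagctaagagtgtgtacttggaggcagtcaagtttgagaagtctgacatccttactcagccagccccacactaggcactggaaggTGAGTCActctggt
PMAIP1: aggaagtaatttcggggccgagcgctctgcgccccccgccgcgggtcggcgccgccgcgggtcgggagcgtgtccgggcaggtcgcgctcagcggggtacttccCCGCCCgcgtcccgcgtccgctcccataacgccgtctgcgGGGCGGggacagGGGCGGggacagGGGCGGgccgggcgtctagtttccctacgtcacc
CYCS: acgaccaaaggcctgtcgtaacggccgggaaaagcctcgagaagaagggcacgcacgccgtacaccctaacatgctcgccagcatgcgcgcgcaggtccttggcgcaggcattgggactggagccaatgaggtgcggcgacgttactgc
BMF: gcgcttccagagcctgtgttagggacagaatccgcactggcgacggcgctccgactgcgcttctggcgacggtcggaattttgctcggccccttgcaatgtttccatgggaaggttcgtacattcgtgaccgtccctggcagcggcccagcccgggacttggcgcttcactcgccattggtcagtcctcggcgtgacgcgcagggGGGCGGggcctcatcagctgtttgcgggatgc
Motifs were searched on both strands in the 250 bases before each start site: E2F (TTTNNCGC), AP-1 (TGANTCA), the cAMP response element (TGACGTCA), C/EBP-ATF (TGATGNAA), NF-kappaB (GGGANNTTC, the consensus less its last base) and the GC box bound by SP1 (GGGCGG). BBC3 held 1 AP-1 match, 113 bases before its start site. Across 34788 distinct promoter windows of the same length, 6.59% held AP-1 letters, and 3 members did (BBC3, CFLAR and CASP8). PMAIP1 held 4 GC boxes, at 146, 106, 94 and 82 bases, and BMF held 1 at 45 bases, while GC boxes were found in 67.3% of the 52 windows of members and in 42.6% of all windows. E2F letters (5.89% of all windows) were found in BCL2L1, the cAMP response element (1.64%) in BIRC2, C/EBP-ATF letters (3.16%) in HRK, and NF-kappaB letters (3.52%) in PMAIP1, in the exonic part of its window that is not shown. Overlaps between motifs, and between windows of the same gene, were not removed, so a GC box can count in more than 1 window. The shares of windows with a GC box were not tested against each other. A match says only that the letters are there.

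Of the 4 anti-apoptotic BCL2 genes, 0 were called by edgeR and 0 by DESeq2. Over all genes tested, edgeR called 11.1% higher and 13.6% lower. The groups overlapped for all 4, whereas 51.2% of all genes tested had groups that did not overlap. Counts from 4 genes are too few to tell from these shares. BCL2L1 was the 1 with an unadjusted p under 0.05, which 45.2% of all genes tested had. MCL1, a short-lived protein that restrains BAK1 and BIM, was the most abundant of the 33 genes at 615, 766 and 677 CPM in NC against 710, 616 and 660 CPM in si-EIF5A2. Its log2 fold change was -0.0514 (SE 0.10), with a 95% interval of -0.28 to 0.17, so a change of 1.5-fold lies outside the interval. BCL2L1, which encodes BCL-XL, was at 332, 285 and 299 CPM in NC against 331, 374 and 353 CPM in si-EIF5A2, a log2 fold change of 0.21 (95% interval 0.0114 to 0.40, adjusted p 0.0938 in edgeR). Counts per gene do not separate its long anti-apoptotic from its short pro-apoptotic splice form, and 43.0% of its exon bases lie opposite the antisense gene ABALON. BCL2 itself was rare, at 2.67 CPM in NC against 2.22 CPM in si-EIF5A2 (log2 fold change -0.26, 95% interval -0.93 to 0.41).

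MCL1 took 61.1 ± 4.41% of the summed level per kilobase of these 4 genes in NC and 58.1 ± 2.56% in si-EIF5A2 (SD, n = 3), and BCL2L1 took 36.1 ± 4.11% and 40.9 ± 3.62%. The sum was 256 ± 12.9 and 261 ± 7.25 CPM per kb. Neither this sum nor the shares separated the groups. The BH3-only sum did, with 77.3 in its highest NC library and 95.5 CPM per kb in its lowest si-EIF5A2 library. By the same values, so did the sums of the caspases (26.2 and 34.7), death receptor adaptors (81.4 and 100) and IAP genes (9.39 and 11.9). The groups overlapped for the sum of the pore-forming genes. These contrasts hold for the genes listed here only. The anti-apoptotic BCL2A1, a gene of the wider list that was called higher, is not in the sum of the 4 genes. It was at 11.2 CPM per kb in NC and 31.5 in si-EIF5A2.

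BCL2L12, a BCL2-like gene whose role in apoptosis is debated, was at 36.4, 31.9 and 29.7 CPM in NC and at 14.6, 18.0 and 13.7 CPM in si-EIF5A2. The knockdown libraries were all lower, with a log2 fold change of -1.08 (SE 0.14, adjusted p 0.00055 in edgeR). Of its exon bases, 33.1% lie opposite IRF3, and the sources do not say whether the libraries kept the strand, so reads there cannot be assigned with certainty.

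Of the 2 pore-forming genes, which were both abundant, 0 were called by edgeR or DESeq2 and 1 (BAK1) had an unadjusted p under 0.05. Over all genes tested, edgeR called 11.1% higher and 13.6% lower, and 45.2% had such a p. BAX was at 213, 169 and 185 CPM in NC and at 169, 181 and 173 CPM in si-EIF5A2, with overlapping groups and a log2 fold change of -0.12 (95% interval -0.34 to 0.10). BAK1 was at 95.2, 88.4 and 96.4 CPM in NC and at 114, 135 and 117 CPM in si-EIF5A2. All knockdown libraries were higher for BAK1, with a log2 fold change of 0.39 (SE 0.09, adjusted p 0.0101 in edgeR), under the fold limit. Per kilobase, BAK1 accounted for 36.7 ± 2.06% of the 2 genes in NC and 45.0 ± 1.44% in si-EIF5A2 (SD, n = 3).

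Downstream of the mitochondria, CYCS rose and the other 3 genes were not called. Over all genes tested, 11.1% were called higher and 13.6% lower. CYCS encodes cytochrome c, which carries electrons in respiration and triggers the apoptosome once released. It was at 65.5, 67.2 and 65.6 CPM in NC and at 104, 109 and 103 CPM in si-EIF5A2. Libraries of a group differed little, so that a modest log2 fold change of 0.67 (SE 0.07) had an adjusted p of 0.000208 in edgeR. APAF1, the scaffold of the apoptosome, was at 7.81, 6.93 and 11.7 CPM in NC and at 13.7, 12.2 and 13.3 CPM in si-EIF5A2. NC replicate 3 lay close to the knockdown libraries, and the log2 fold change of 0.57 (SE 0.20) had an adjusted p of 0.0595 in edgeR. Without that library APAF1 was called at 0.82 (adjusted p 0.00651). HTRA2, a mitochondrial protease that can counter IAP proteins, was at 42.5, 41.5 and 39.4 CPM in NC and at 32.9, 37.9 and 36.7 CPM in si-EIF5A2. Its libraries were separate but close, with a log2 fold change of -0.20 (SE 0.09, adjusted p 0.129 in edgeR), and 20.8% and 16.1% of its exon bases lie opposite LOXL3 and AUP1. DIABLO, whose product SMAC also counters IAP proteins, overlapped at 67.6 and 75.3 CPM (log2 fold change 0.16, 95% interval -0.17 to 0.49).

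Of the 3 IAP genes, 1 (BIRC2) was called higher, though not firmly, and 0 lower. Over all genes tested, 11.1% were called higher and 13.6% lower. BIRC2 encodes cIAP1, a ubiquitin ligase of TNF receptor signalling. It was at 29.9, 32.8 and 22.2 CPM in NC and at 70.8, 35.6 and 69.8 CPM in si-EIF5A2. Replicate 2 of si-EIF5A2 was close to the controls and the other two were far above them. The log2 fold change was 1.05 (SE 0.30, adjusted p 0.0362 in edgeR), and the call was lost when NC replicate 1 (1.09, adjusted p 0.104), NC replicate 2 (1.17, 0.0706), NC replicate 3 (0.90, 0.108), si-EIF5A2 replicate 1 (0.89, 0.105) or si-EIF5A2 replicate 3 (0.90, 0.103) was left out. With the filter on low counts removed it was 1.02 (adjusted p 0.111).

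XIAP, the IAP that inhibits active caspases directly, was at 8.07, 6.01 and 7.08 CPM in NC and at 6.98, 24.7 and 3.46 CPM in si-EIF5A2. A single library, si-EIF5A2 replicate 2, was far above all others. The log2 fold change of 0.73 (SE 0.74, adjusted p 0.508 in edgeR) became -0.43 (adjusted p 0.356) without it. BIRC6, a giant ubiquitin-conjugating IAP, overlapped at 26.0 ± 0.640 and 27.5 ± 4.14 CPM (SD, n = 3), with a log2 fold change of 0.0796.

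Some genes scattered within a group far beyond the rest. The coefficient of variation between libraries had a median of 11.0% in NC and 9.53% in si-EIF5A2 over the 33 members, and of 12.5% and 12.9% over all genes tested. In si-EIF5A2 it was 97.1% for XIAP, 80.1% for BCL2L11 and 121% for BCL2L2. BCL2L2, which encodes the anti-apoptotic BCL-W, was at 39.7, 40.3 and 7.91 CPM in NC and at 26.4, 2.24 and 4.40 CPM in si-EIF5A2. High and low libraries occurred in both groups, and its log2 fold change of -1.41 (SE 1.15) had an adjusted p of 0.411 in edgeR. It was -3.15 (adjusted p 0.0807) without si-EIF5A2 replicate 1 and -0.93 (adjusted p 0.592) without si-EIF5A2 replicate 2. Its exons share 19.4% of their bases with the read-through gene BCL2L2-PABPN1 on the same strand, which was at 0.37, 1.91 and 12.7 CPM in NC and at 0.391, 2.24 and 1.58 CPM in si-EIF5A2. Summed, both genes were at 40.1, 42.2 and 20.7 CPM in NC against 26.8, 4.48 and 5.98 CPM in si-EIF5A2. NC replicate 3 was low for BCL2L2 and high for the read-through gene, and the part that the sharing of reads between the 2 had in this was not tested.

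**Figure D3:**
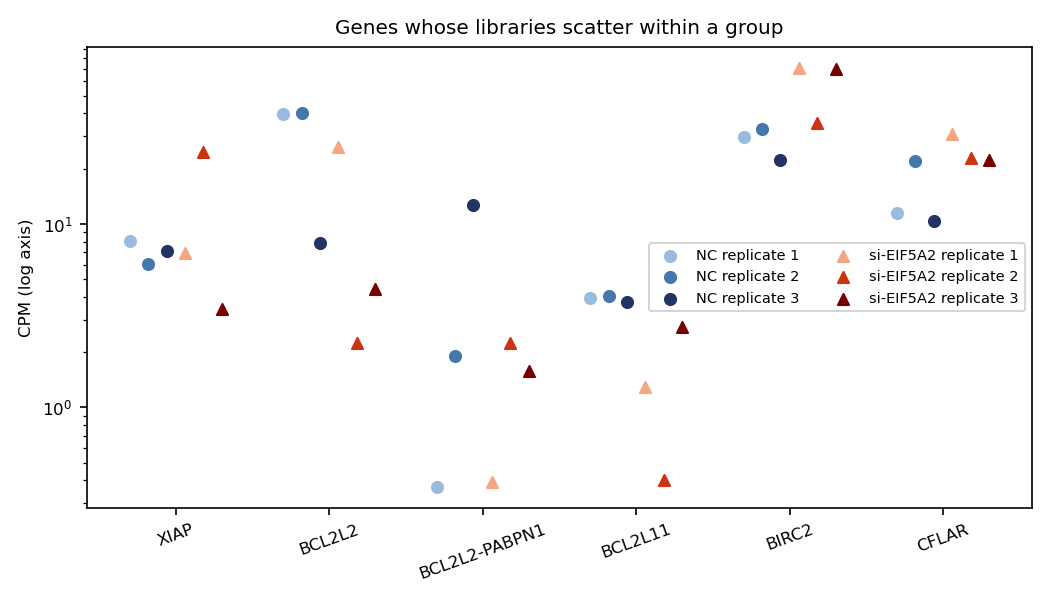
CPM on a log axis for 5 members whose libraries scatter within a group and for the read-through gene BCL2L2-PABPN1, with 1 point per library (circles NC, triangles si-EIF5A2, shades for replicate number). Replicate 2 of si-EIF5A2 is the high point of XIAP at 24.7 CPM and the low point of BCL2L11 at 0.402 CPM, and it lies far below the other two knockdown libraries for BIRC2 at 35.6 CPM.

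Of the adaptors at death receptors, 0 of 4 were called in edgeR, beside 11.1% of all genes tested called higher and 13.6% lower. An unadjusted p under 0.05 was found for 3 of 4, as for 45.2% of all genes tested, and DESeq2 called 1 (CFLAR). FADD, the adaptor that brings caspase-8 to death receptors, was at 130, 126 and 111 CPM in NC and at 165, 181 and 163 CPM in si-EIF5A2. The groups did not overlap, and the log2 fold change of 0.47 (SE 0.09, adjusted p 0.00373 in edgeR) stayed under the fold limit. FADD made up 85.6% of the summed level per kilobase of the 4 genes in NC and 87.8% in si-EIF5A2, and 54.9% of its exon bases lie opposite an antisense gene with at most 52 counts in a library. CFLAR, whose product c-FLIP competes with caspase-8 for FADD, was at 11.4, 22.0 and 10.4 CPM in NC and at 30.9, 23.0 and 22.2 CPM in si-EIF5A2. NC replicate 2 nearly reached the knockdown libraries, and the log2 fold change was 0.80 (SE 0.31, adjusted p 0.097 in edgeR). Without that library it was 1.22 (adjusted p 0.00297), and DESeq2 called it on all libraries at 0.79 (adjusted p 0.0138). TRADD, an adaptor of TNF receptor 1, was at 7.82 and 10.1 CPM with every knockdown library higher (log2 fold change 0.37, adjusted p 0.101 in edgeR). RIPK1, a kinase of the same complex, overlapped at 31.6 ± 1.89 and 32.7 ± 1.33 CPM (SD, n = 3), with a log2 fold change of 0.0488 and a 95% interval of -0.16 to 0.26.

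**Figure D4:**
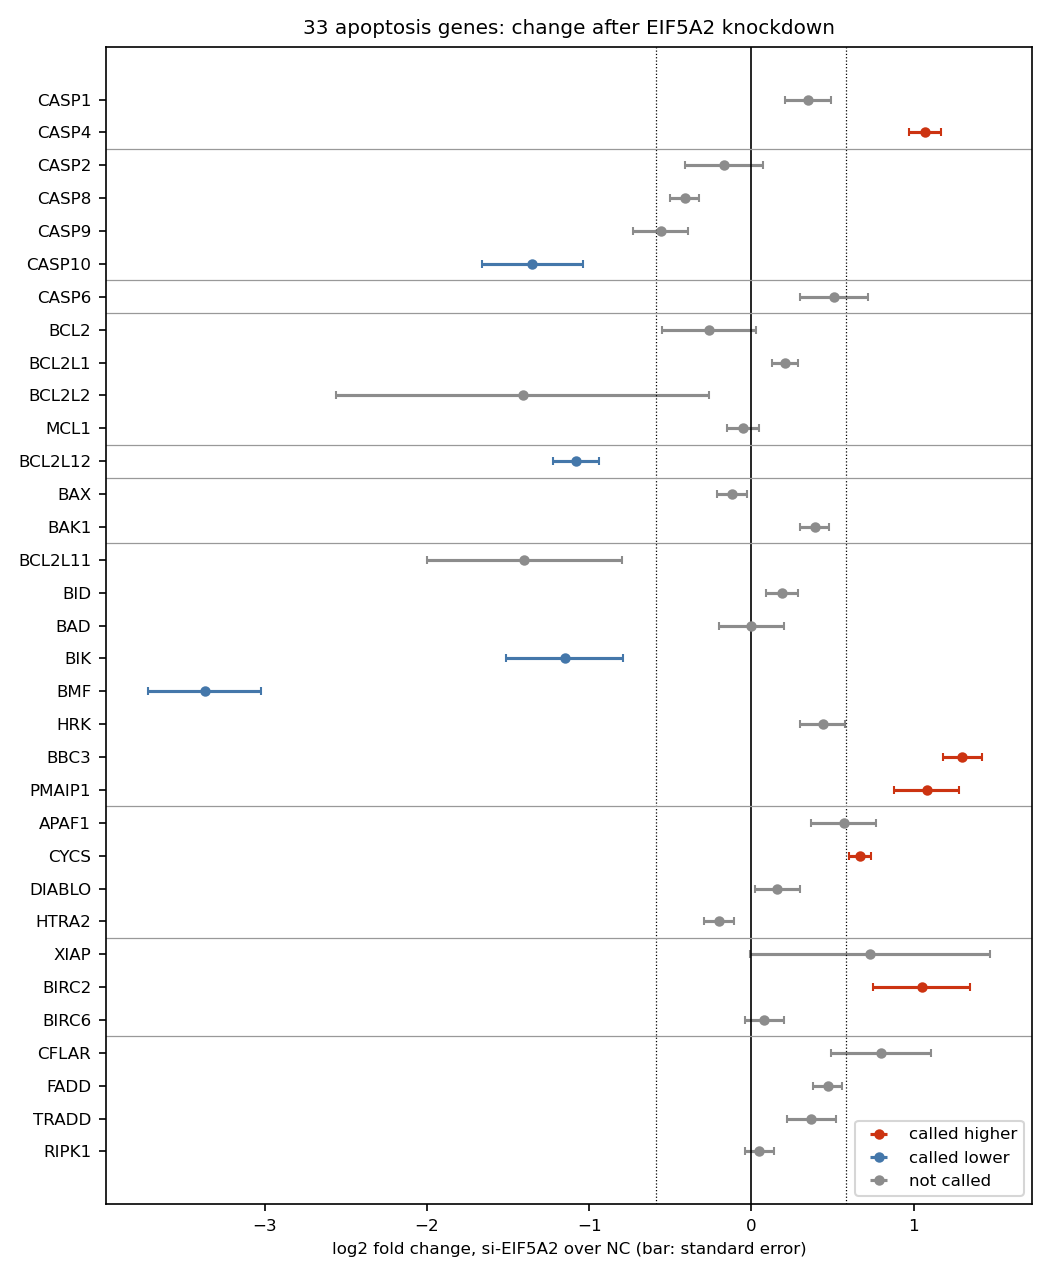
Log2 fold change of si-EIF5A2 over NC for the 33 genes in the order of their roles, with standard errors as bars, red for called higher, blue for called lower and grey for not called, and dotted lines at 1.5-fold in either direction. BMF lies farthest from 0 at -3.37, and BCL2L2 and XIAP have the longest bars. The called CASP4, BBC3, PMAIP1, CYCS and BIRC2 lie to the right of the limit, as do CFLAR (0.80) and XIAP (0.73), which were not called.

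Other genes of the apoptosis machinery were taken as a list of 53, of which 37 passed the filter and 16 did not. Of the 37, 8 were called higher and 4 lower (21.6% and 10.8%, beside 11.1% and 13.6% of all genes tested), and 26 (70.3%, beside 51.2%) had groups that did not overlap. Their median log2 fold change was 0.148, beside -0.0105 over all genes. The 16 that were not tested included CASP5, CASP12, CASP14, BIRC7, BIRC8, PYCARD, RIPK3, FASLG and TNFSF10.

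Of the 3 tested IAP genes of this list, 1 was called higher and 1 lower, beside 11.1% and 13.6% of all genes tested. BIRC3, which encodes cIAP2 and lies beside BIRC2 on chromosome 11, was at 25.0, 26.1 and 28.8 CPM in NC and at 133, 108 and 106 CPM in si-EIF5A2 (log2 fold change 2.12, SE 0.11, adjusted p 1.06e-05 in edgeR). BIRC5, which encodes survivin and acts in cell division, was at 21.0, 25.5 and 22.4 CPM in NC and at 11.0, 6.65 and 5.98 CPM in si-EIF5A2 (-1.55, SE 0.23, adjusted p 0.00163). Neither BIRC3 nor BIRC5 had overlapping groups. NAIP, the other tested gene, did, with a log2 fold change of 0.42 (adjusted p 0.8 in edgeR).

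Death receptors differed among themselves. The 8 tested receptors and ligands had a median log2 fold change of -0.327, and the 2 that were called were the TRAIL receptors with a death domain, both higher. This was 25.0% called higher and 0% lower, beside 11.1% and 13.6% of all genes tested. TNFRSF10B, which encodes DR5, was at 344, 349 and 344 CPM in NC and at 790, 739 and 786 CPM in si-EIF5A2, a log2 fold change of 1.16 (SE 0.06, adjusted p 1.18e-05 in edgeR). TNFRSF10A, which encodes DR4, went from 43.6 ± 5.73 to 67.7 ± 1.32 CPM (SD, n = 3) with a log2 fold change of 0.63, and it fell under the fold limit at 0.53 without NC replicate 1. TNFRSF10D, a TRAIL receptor with no working death domain, was at 213 ± 5.70 and 147 ± 10.2 CPM (SD, n = 3), a log2 fold change of -0.53 (adjusted p 0.00105 in edgeR) under the fold limit. TNFRSF1A, the TNF receptor that TRADD binds, was at 435 ± 20.8 and 292 ± 24.7 CPM (SD, n = 3) and lower in every knockdown library, with a log2 fold change of -0.57 (adjusted p 0.00115 in edgeR), also under the limit. FAS, the receptor of FAS ligand, was at 35.9 ± 4.70 and 23.9 ± 6.93 CPM with overlapping groups (log2 fold change -0.59, adjusted p 0.0654 in edgeR). The other genes called higher were the anti-apoptotic BCL2A1 (1.49), the mitochondrial BCL2L13 (0.84), the TNF receptor adaptor TRAF2 (0.84), the ubiquitin ligase MDM2 (0.79) and AIFM2 (0.70), which is known as a suppressor of ferroptosis.

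Besides BIRC5, the genes called lower were PIDD1 (-0.89), a scaffold that activates caspase-2, PARP1 (-0.81), a DNA repair enzyme cleaved by caspases, and MDM4 (-0.65), a partner of MDM2 that fell under the fold limit at -0.55 without si-EIF5A2 replicate 2.

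**Figure D5:**
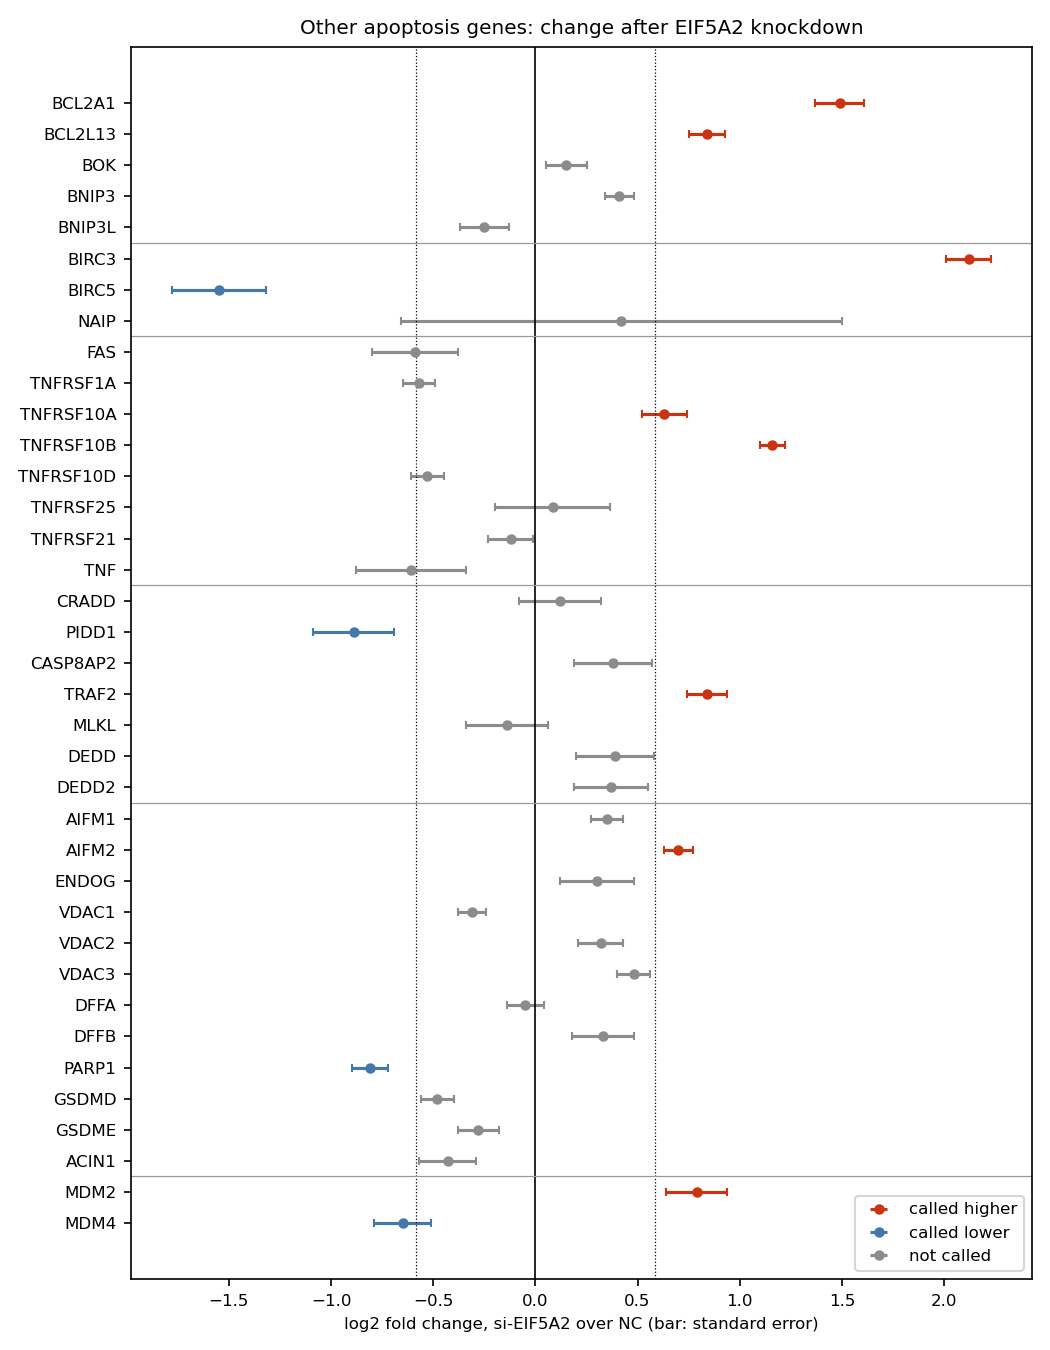
Log2 fold change of si-EIF5A2 over NC for the 37 tested genes of the wider apoptosis list, grouped by role, with standard errors as bars and the same colours and dotted 1.5-fold limits. BIRC3 at 2.12 lies farthest to the right and BIRC5 at -1.55 farthest to the left, while NAIP has the longest bar.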

How the data were processed

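The authors sequenced paired-end mRNA libraries and estimated transcript levels with StringTie. The deposited values are estimated counts per gene, whole numbers and not normalized. Among low values, multiples of 3.73 recur, so that 1 fragment appears to be worth several counts. Limits of detection use 3 fragments and cover counting error only. The submitters' processing notes name Bowtie 0.12.2 and mouse builds, which do not match the human identifiers. The annotation used is not given in the sources used here. All 6 columns matched a library by name.

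Symbols, positions, exon lengths and overlaps came from GENCODE 29 (GRCh38). The members and the wider list were chosen with earlier results of these data known. Every member was named, with all libraries if called or if separate between groups at 10 CPM or more on average. Genes with scattered libraries were chosen after their values were seen. Of the wider list the called genes were named, and some others as examples. Some genes of that list and of the marker lists are not reported here.

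The test was planned for plain counts and kept for estimated counts: edgeR 4.0.16 (R 4.3.3) with filterByExpr, TMM, condition as the only term and robust quasi-likelihood fits, adjusted by Benjamini-Hochberg across the 16208 genes tested (common biological coefficient of variation 0.261). Calls needed over 1.5-fold change beside an adjusted p under 0.05. Intervals (95%) are unadjusted. DESeq2 1.42.0 and 13 other settings were alternatives. Scripts were tested on simulated data.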

Additional observations from a re-analysis of the deposited data

How the results depend on the processing

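Each log2 fold change of the 33 members was recomputed under 14 alternative fits, and of the 462 values 433 kept their direction and their side of the threshold, 12 lost a call, 8 gained one and 9 changed sign. All 12 lost calls were of BIRC2 and BIK. The 8 gained calls were of CASP6, CASP9, BCL2L11, APAF1 and CFLAR. CASP4, BBC3, PMAIP1, CYCS, BMF, BCL2L12 and CASP10 were called in all 14.

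With an adjusted p alone, 8 members were higher and 6 lower, and 11 genes of the wider list were higher and 9 lower (18.0% and 18.9% of all genes). At the threshold of the methods, 3 genes of the wider list were higher and 1 lower (5.38% and 9.24% of all genes). With 1 library left out, 3 (without si-EIF5A2 replicate 2) to 7 (without si-EIF5A2 replicate 1) genes of the wider list were lower. Changes of sign were all of genes near 0 or with scattered libraries. BAD was 0.00721 with RLE normalization, 0.00805 with library sizes only, 0.0166 with the replicate block and -0.15 to 0.22 with 1 library left out. With 1 library left out, MCL1 ran from -0.13 to 0.0342, BIRC6 from -0.00943 to 0.20, RIPK1 from -0.000682 to 0.0807 and XIAP from -0.43 to 1.16. The cause was not tested.

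Replicate numbers are shared between the groups, but same-numbered libraries did not deviate together (r of -0.0244, 0.00522 and -0.00269). With 3 libraries per group, this cannot show whether they were prepared as pairs. With the replicate number as a block, 4 members were higher and 3 lower: BIRC2 (1.01, adjusted p 0.106) and BIK (-1.12, 0.0748) were no longer called, and EIF5A2 was at -3.00. Depth limits what can be said of BMF in si-EIF5A2, where its 14 to 30 estimated counts stand for a few fragments. Estimated counts were also low there for CASP10 (26 to 42), BIK (33 to 51) and BCL2L11 (21 to 132).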
